A study of Mus musculus with 16 samples.

Results

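Milk protein and milk fat genes were examined in mouse mammary adipose tissue. The set was named by symbol and held 8 genes: the caseins Csn1s1, Csn2, Csn1s2a and Csn3, the whey proteins Wap (whey acidic protein) and Lalba (alpha-lactalbumin), and the milk fat genes Btn1a1 (butyrophilin) and Xdh (xanthine dehydrogenase). Of these 8 genes, 6 had a row among the 23179 genes of the table, whereas Csn1s2a and Wap had none and were not analysed here. Caseins form the micelles of milk, and Csn3 encodes the kappa-casein that stabilizes the micelle surface. Lalba supplies the regulatory subunit of lactose synthase, and Btn1a1 and Xdh encode proteins of the membrane that wraps secreted milk fat globules. In the mammary gland these genes are switched on in luminal alveolar cells by prolactin acting through its receptor and STAT5, while Xdh is also an enzyme of purine breakdown that many tissues, adipose tissue included, use.

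Total RNA from wild-type C57BL/6N mice was sequenced in 16 libraries, 4 mice in each of 4 groups. CON-LFD mice stayed on the control low-fat diet. Mice with diet-induced obesity (DIO) had eaten a 60% high-fat diet and then either stayed on it (DIO-HFD), were switched to low-fat food (DIO-LFD), or had a vertical sleeve gastrectomy, which removes part of the stomach, together with low-fat food (DIO-VSG). Mice without the gastrectomy had a sham operation, and all 4 groups carried a tumor of E0771 cells, a mouse mammary cancer line, injected into mammary fat pad 4 at week 22. The profiled tissue was the opposite pad, number 9, so no tumor-free group was available and each library mixed adipocytes, ducts, vessels and immune cells. In such bulk tissue, fewer cells of a type and less RNA per cell cannot be told apart.

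The libraries held 46907377 to 57610899 reads assigned to genes. Adipocyte markers were high in all 16 libraries, with 10 of 10 in the table and a summed level of 478745 to 1992835 normalized counts, that is reads scaled to a common library size. Luminal epithelial markers, the keratins Krt8 and Krt18 among them, were also present, with 20 of 20 in the table and sums of 47371 to 166159. B cell markers varied widely, with 7 of 7 in the table and sums of 224 to 56132 normalized counts in CON-LFD, 884 to 74277 in DIO-HFD, 13028 to 30132 in DIO-LFD and 50741 to 59335 in DIO-VSG. The values of these markers are given below beside the Csn2, Csn3 and Xdh results.

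Csn1s1, Csn2 and Csn3 lie in the casein cluster of chromosome 5 (GRCm38), an interval of 266 kb that holds 13 annotated genes, 7 of them protein coding. Among these 13 genes, rows existed for Csn1s1, Csn2 and Csn3 alone. Csn1s1 occupies chr5:87666208-87682578 on the plus strand, Csn2 chr5:87692624-87699630 on the minus strand and Csn3 chr5:87925579-87932665 on the plus strand. Lalba lies at chr15:98480400-98482721, Btn1a1 at chr13:23456992-23465901 and Xdh at chr17:73883895-73950196, all on the minus strand. The median level over 16 libraries was 0 normalized counts for Csn1s1, 9.69 for Csn2 and 1350 for Csn3.

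**Figure D1:**
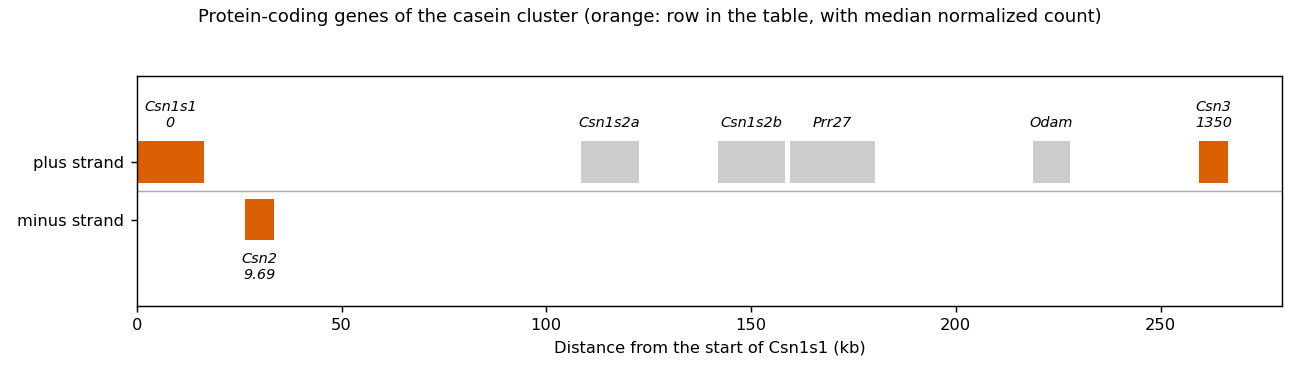
Protein-coding genes of the casein cluster, drawn to scale as distance in kb from the start of Csn1s1, with the plus strand above and the minus strand below the line. Orange boxes had a row in the table and carry their median normalized count over 16 libraries (0 for Csn1s1, 9.69 for Csn2, 1350 for Csn3), and grey boxes had no row.

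The promoters of 5 of the 8 genes were found in a RefSeq table of GRCm38.p6, and those of Csn1s1, Csn2 and Lalba are printed because these genes had rows and were read at very low levels. Csn3, Btn1a1 and Xdh had no entry. The 250 bases before the RefSeq start site were searched for TTCNNNGAA, the palindromic form that STAT5 is known to bind and which reads the same on both strands. Capitals mark the match.
Csn1s1, chr5:87665958-87666207, plus strand: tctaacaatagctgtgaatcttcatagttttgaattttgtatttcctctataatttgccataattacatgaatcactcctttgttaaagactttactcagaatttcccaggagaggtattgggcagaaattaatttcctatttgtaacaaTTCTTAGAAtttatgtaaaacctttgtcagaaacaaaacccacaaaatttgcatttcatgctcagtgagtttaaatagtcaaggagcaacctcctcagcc
Csn2, chr5:87699426-87699675, minus strand: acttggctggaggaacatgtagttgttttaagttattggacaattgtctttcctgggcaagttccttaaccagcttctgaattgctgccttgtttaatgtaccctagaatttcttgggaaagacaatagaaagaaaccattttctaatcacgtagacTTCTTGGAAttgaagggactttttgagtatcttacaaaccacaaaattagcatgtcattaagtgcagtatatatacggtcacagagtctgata
Lalba, chr15:98482684-98482933, minus strand: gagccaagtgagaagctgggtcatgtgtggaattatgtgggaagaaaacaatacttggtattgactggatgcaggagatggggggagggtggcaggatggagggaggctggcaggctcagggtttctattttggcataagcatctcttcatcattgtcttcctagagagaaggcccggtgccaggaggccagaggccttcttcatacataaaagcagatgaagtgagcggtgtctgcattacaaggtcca
Csn1s1 had 1 match, TTCTTAGAA, at -100 to -92 from the start site, and Csn2 had 1 match, TTCTTGGAA, at -93 to -85. The windows of Lalba, Csn1s2a and Wap held no match to these letters. For comparison, 7.02% of 32851 promoters of the same length held a match.

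The 6 genes fell into a well-expressed and a barely detected set. Per kb of the longest annotated transcript, the mean level was 1854 normalized counts for Xdh, 971 for Csn3, 249 for Btn1a1, 6.26 for Lalba, 5.23 for Csn1s1 and 5.04 for Csn2. Xdh thus stood at percentile 92.3 of 22221 genes with a known length, Csn3 at 83.7, Btn1a1 at 56, Lalba at 10.6, Csn1s1 at 9.0 and Csn2 at 8.7. Libraries overlapped between neighbors in this order: Xdh ranged from 965 to 2562 per kb, Csn3 from 293 to 2402 and Btn1a1 from 54.9 to 1227. Lalba, Csn1s1 and Csn2 did not separate, and the order among them rested on the length used, since with the longest protein-coding transcript Csn2 stood at 15 per kb, Lalba at 6.26 and Csn1s1 at 5.67.

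**Figure D2:**
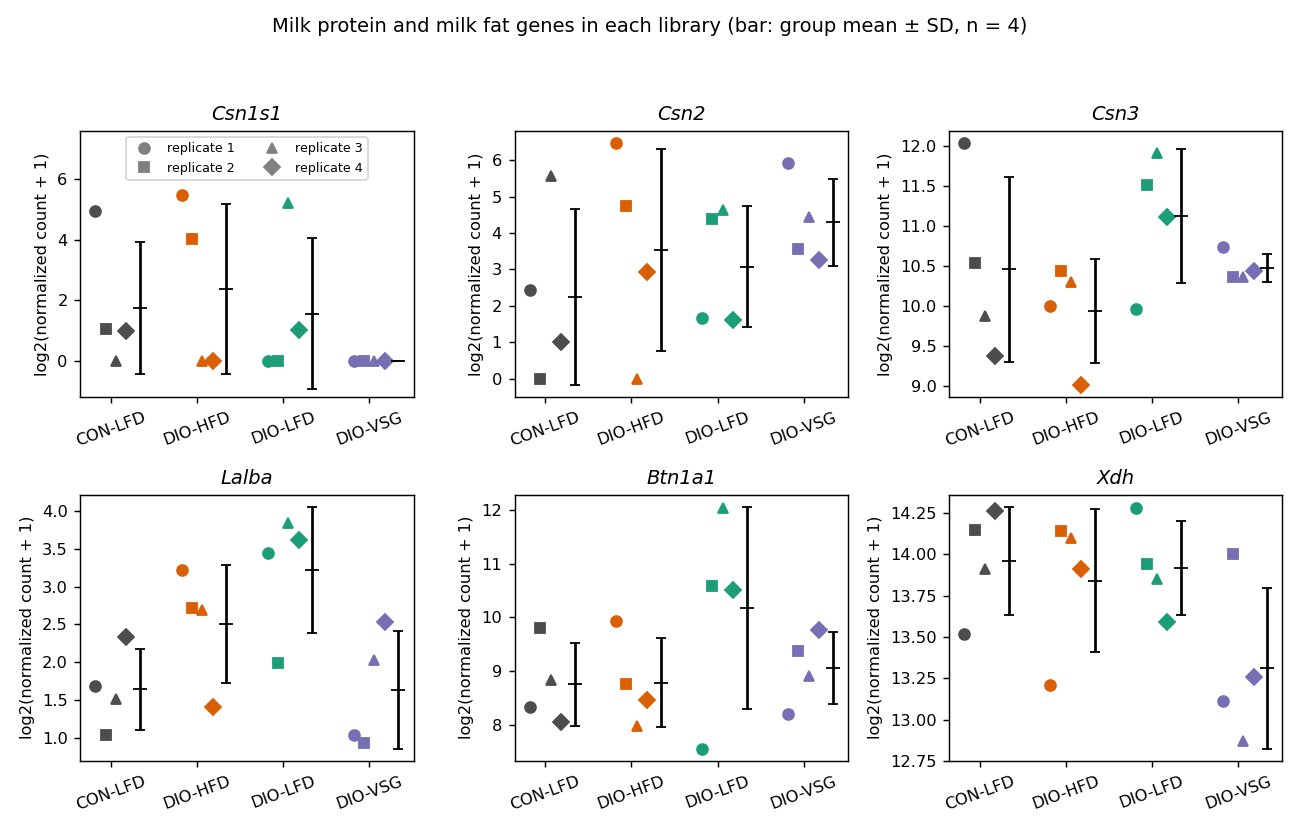
Level of each gene as log2(normalized count + 1) in every library, with symbols for replicates 1 to 4 and a black bar for the group mean ± SD (n = 4); the vertical axes differ between panels. Csn1s1 was at 0 in all 4 DIO-VSG libraries, and Csn3 and Btn1a1 were high in 3 of 4 DIO-LFD libraries.

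Csn3 was the one casein read at a substantial level. Its normalized counts were 4204, 1484, 943 and 661 in CON-LFD replicates 1 to 4, 1020, 1386, 1256 and 513 in DIO-HFD, 992, 2926, 3856 and 2222 in DIO-LFD, and 1714, 1314, 1314 and 1390 in DIO-VSG. DIO-VSG was tight and the other groups spread widely, and every pair of groups overlapped. The group means were 1823 ± 1623 in CON-LFD, 1044 ± 385 in DIO-HFD, 2499 ± 1207 in DIO-LFD and 1433 ± 191 in DIO-VSG (SD, n = 4). CON-LFD replicate 1 held the highest value of the 16 and was 8.2 times the lowest, DIO-HFD replicate 4.

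Csn2, which encodes beta-casein, gave 328 reads in all 16 libraries together. Its normalized counts were 4.41, 0, 46.1 and 1.00 in CON-LFD, 87.9, 25.5, 0 and 6.56 in DIO-HFD, 2.18, 19.8, 23.8 and 2.04 in DIO-LFD, and 59.1, 10.8, 20.5 and 8.58 in DIO-VSG. Reads were present in all 4 DIO-VSG libraries at more than 3 reads each, while the other groups mixed libraries near 0 with libraries above 20. Csn1s1, which encodes an alpha-casein, gave 129 reads, and 9 of 16 libraries had none. Its normalized counts were 29.8, 1.06, 0 and 1.00 in CON-LFD, 43.5, 15.5, 0 and 0 in DIO-HFD, and 0, 0, 36.2 and 1.02 in DIO-LFD, with 0 in each DIO-VSG library. All but a few of the Csn1s1 reads thus came from 4 mice, 1 or 2 in each of CON-LFD, DIO-HFD and DIO-LFD. The groups held 29, 61, 39 and 0 reads in that order; a count of 0 allows up to 3 reads in a library, and 8 of the 12 libraries outside DIO-VSG were themselves at 3 reads or fewer. The fitted Csn1s1 differences of DIO-VSG, which depend on the pseudocount and are no bound, were -2.38 against DIO-HFD, -1.75 against CON-LFD and -1.56 against DIO-LFD (limma, adjusted P = 0.43, 0.491 and 0.63), within the spread between mice.

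Lalba was read in every library but with 77 reads in all. The libraries held 2.21, 1.06, 1.84 and 4.02 normalized counts for CON-LFD, 8.33, 5.53, 5.46 and 1.64 in DIO-HFD, 9.83, 2.98, 13.3 and 11.2 in DIO-LFD, and 1.04, 0.899, 3.08 and 4.76 in DIO-VSG. The highest 3 values were all from DIO-LFD, yet the lowest DIO-LFD library lay inside the CON-LFD and DIO-VSG ranges. In all, 8 of 16 libraries were at 3 reads or fewer, and Lalba did not pass the filter of 10 normalized counts in 4 libraries, so it entered no genome-wide test. Its difference between DIO-LFD and CON-LFD was 1.58 on the log2 scale with an exact permutation P of 0.0571 (two-sided, 4 against 4 mice, smallest P possible 0.0286), and between DIO-VSG and DIO-LFD -1.59 with an exact P of 0.0857.

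Btn1a1 showed the widest range among the well-read genes, 22.4 times from lowest to highest. Levels were 320, 892, 454 and 266 normalized counts for CON-LFD, 976, 436, 253 and 355 in DIO-HFD, 188, 1543, 4201 and 1454 in DIO-LFD, and 293, 662, 479 and 864 in DIO-VSG. DIO-LFD held both the lowest library of the study, replicate 1, and the 3 highest, replicates 2, 3 and 4. The same DIO-LFD replicate 1 was the lowest of its group for Csn3, and also for Elf5, an alveolar transcription factor (532 against 1996, 2726 and 1245 normalized counts), and for Pgr, the progesterone receptor (1123 against 7389, 5006 and 6629). Of the 16 genes in the prolactin and STAT5 list, 8 were lowest of their group in that library, these among them, and 2 were highest, Cish, a STAT5 target (4471 against 808, 2313 and 915), and Ybx1. The library also had the highest adipocyte score of the 16, at 0.80, and the lowest luminal score of its group, at -0.14 against 0.74, 0.15 and 0.27. The relations of Btn1a1 to both scores are given with those of the other genes. Without DIO-LFD replicate 1 the difference between DIO-LFD and DIO-HFD went from 1.38 to 2.25 on the log2 scale (limma, adjusted P = 0.193), and without replicate 3, which held the highest level, it went to 0.76.

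Xdh was the most abundant and the steadiest of the genes. It stood at 11748, 18160, 15385 and 19650 normalized counts for CON-LFD, 9474, 18006, 17618 and 15443 in DIO-HFD, 19920, 15674, 14721 and 12321 in DIO-LFD, and 8856, 16359, 7505 and 9821 in DIO-VSG. Of the 4 DIO-VSG libraries, 3 were below every CON-LFD and every DIO-LFD library, and DIO-VSG replicate 2 lay among the other groups. The means were 16236 ± 3475, 15135 ± 3939, 15659 ± 3172 and 10635 ± 3932 (SD, n = 4), in the order in which the groups are listed above.

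Mice of 1 group differed more in the casein genes than in most genes. The within-group SD on the log2(normalized count + 1) scale was 2.17 for Csn1s1, 2.10 for Csn2, 1.15 for Btn1a1, 0.79 for Csn3 and 0.39 for Xdh, against a median of 0.36 over 21218 genes tested. Csn1s1 and Csn2 were at 3 reads or fewer in 12 and 5 libraries, while Btn1a1 and Csn3, read in every library at 188 or more normalized counts, still ranked at percentiles 91.3 and 83.2. The genes did not rise and fall as one across the 16 libraries. As a description across libraries that share group and tissue makeup, Csn3 and Btn1a1 had the highest pairwise correlation, 0.54, Csn1s1 and Csn2, which share the motif match, had 0.29, and Csn2 and Xdh had the lowest, -0.53.

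The 6 comparisons between groups asked whether these genes differed with obesity, with weight loss by diet or with weight loss by surgery. DIO-HFD alone stayed on high-fat food, so body weight and current food cannot be told apart in comparisons with it. DIO-VSG differed from DIO-HFD in surgery as well. No gene of the 5 tested differed after adjustment over all genes in any comparison: the smallest Benjamini-Hochberg adjusted P from limma was 0.268. The exception among the alternatives was a fit with array quality weights, in which 5 of the 30 adjusted P values fell below 0.05, for Csn3, Btn1a1 and Xdh. That fit also raised the adjusted calls over all 21218 genes, to 53 to 4226 per comparison against 0 to 8 without weights. At an unadjusted P below 0.05, 3 of 30 tests were called, that is 10%, against 11.4% of the 127308 tests over all genes, so the share was near the background. Of the 36 exact permutation tests, Lalba included, 0 fell below 0.05, and in 0 of 36 pairs were the 2 groups free of overlap. A test over all 4 groups gave 0 of 5 genes at an unadjusted P below 0.05, against 12.7% of all genes (0% after adjustment), with Xdh the lowest (limma F test, adjusted P = 0.416).

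**Figure D3:**
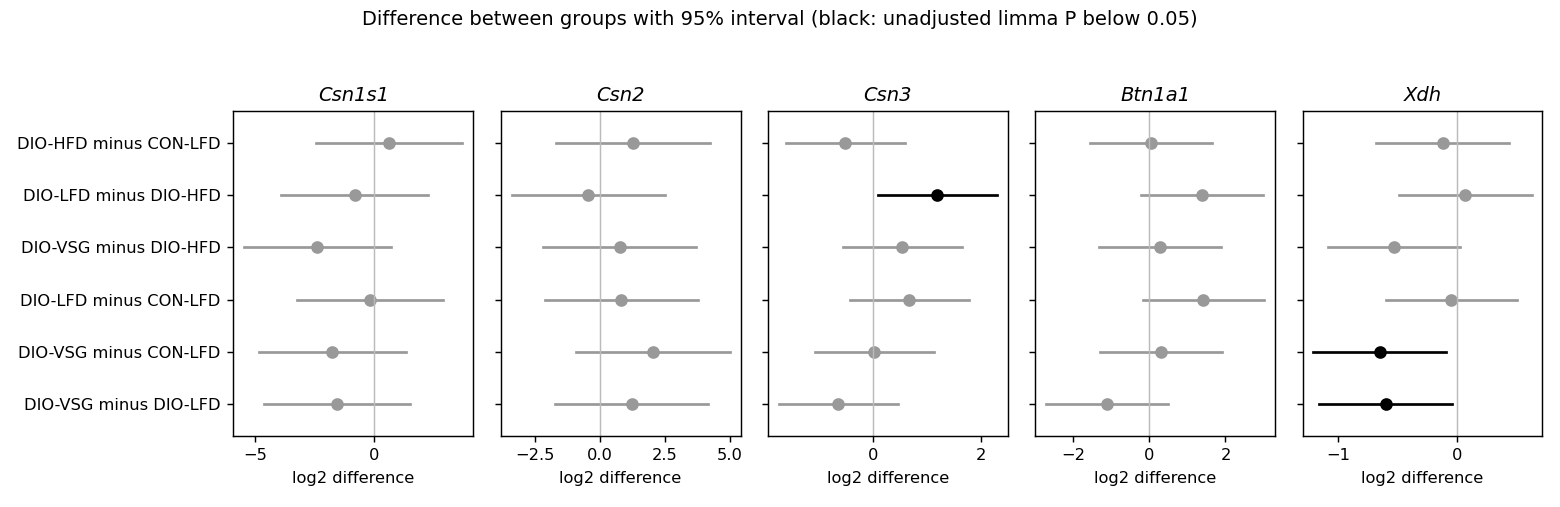
Log2 difference in level (first group minus second) for the 5 tested genes in 6 comparisons, with 95% intervals from limma; black marks an unadjusted P below 0.05 and the horizontal axes differ between panels. Csn3 was higher in DIO-LFD than in DIO-HFD and Xdh lower in DIO-VSG than in CON-LFD and DIO-LFD, and none of the 3 passed adjustment over all genes.

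Obesity was addressed by DIO-HFD against CON-LFD, where 0 of 5 genes were called at an unadjusted P, against 12.9% of all genes (0.0377% after adjustment), and 0 of 6 had groups that did not overlap, against 4.76%. The log2 differences were -0.52 for Csn3 (95% interval -1.63 to 0.58), 0.04 for Btn1a1 (-1.57 to 1.64), -0.12 for Xdh (-0.68 to 0.44), 1.28 for Csn2 (-1.68 to 4.24) and 0.63 for Csn1s1 (-2.43 to 3.70). The interval was narrowest for Xdh and widest for Csn1s1. Single libraries moved these values: leaving out 1 at a time gave 0.30 (without DIO-HFD replicate 1) to 2.46 (without DIO-HFD replicate 3) for Csn2, 0.05 (without CON-LFD replicate 3) to 1.43 (without DIO-HFD replicate 3 or 4) for Csn1s1 (12 fits, since it fell under the filter in the others), and -0.89 (without CON-LFD replicate 4) to 0.00 (without CON-LFD replicate 1) for Csn3. Their median was 0.04, beside 0.02 over all genes.

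Weight loss by diet was addressed by DIO-LFD against DIO-HFD, where 1 of 5 genes was called at an unadjusted P, against 8.53% of all genes (0% after adjustment), and 0 of 6 did not overlap, against 4.51%. Csn3 was higher in DIO-LFD by 1.19 on the log2 scale (SE 0.52, unadjusted P = 0.0367, adjusted P = 0.552), with 3 of 4 DIO-LFD libraries above all DIO-HFD libraries and an exact permutation P of 0.114. Luminal markers moved alongside: 9 of 20 were higher in DIO-LFD at an unadjusted P and none lower, 0 after adjustment, with summed levels of 78725 to 166159 against 47371 to 93460. Adipocyte markers did too, with 3 of 10 higher at an unadjusted P and 9 of 10 having higher means. With the luminal score, the mean log2 deviation of the 20 markers, as a covariate, the Csn3 difference was 0.65 and was not called (limma, adjusted P = 1). In that fit 663 of 21218 genes were called at an unadjusted P, against 1809 without the covariate. The Csn3 call was also lost without any 1 of replicates 1 and 4 of DIO-HFD or replicates 2, 3 and 4 of DIO-LFD. The differences were 0.88 to 1.58 over all libraries left out in turn. The Btn1a1 difference was 1.38 (95% interval -0.22 to 2.98), and those of Xdh, Csn2 and Csn1s1 were 0.07, -0.46 and -0.82. With 1 library left out at a time, these 3 ran from -0.14 to 0.18, from -1.63 to 0.53 and from -1.61 to -0.30.

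DIO-LFD against CON-LFD gave 0 of 5 genes at an unadjusted P, against 6.26% of all genes (0.00471% after adjustment), and 0 of 6 did not overlap, against 3.53%. Btn1a1 differed by 1.42 (95% interval -0.18 to 3.02), and by 2.29 without DIO-LFD replicate 1 (limma, adjusted P = 0.599) and 0.80 without DIO-LFD replicate 3. Csn3 differed by 0.67 (-0.44 to 1.78), and by 1.20 without CON-LFD replicate 1, which held the highest Csn3 level (limma, adjusted P = 0.999), and 0.31 without CON-LFD replicate 4. This comparison shares its DIO-LFD libraries with the previous one.

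Surgery with low-fat food was compared with each of the other groups. DIO-VSG against DIO-HFD called 0 of 5 genes at an unadjusted P, against 13.2% of all genes (0% after adjustment), and 0 of 6 did not overlap, against 6.59%. Xdh was the nearest to the threshold, at -0.53 (SE 0.26, limma, adjusted P = 0.389). DIO-VSG against CON-LFD called 1 of 5, against 17.8% of all genes (0% after adjustment), with 0 of 6 not overlapping, against 7.02%: Xdh was lower in DIO-VSG by 0.65 on the log2 scale (difference -0.65, SE 0.26, unadjusted P = 0.0256, adjusted P = 0.268, exact permutation P = 0.0857). DIO-VSG against DIO-LFD called 1 of 5, against 9.71% (0% after adjustment), with 0 of 6 not overlapping, against 18.8%: Xdh was again lower, with a difference of -0.60 (SE 0.26, unadjusted P = 0.0362, adjusted P = 0.509, exact permutation P = 0.114). Csn3 differed from CON-LFD by 0.02 (95% interval -1.09 to 1.13), Btn1a1 by 0.30 (-1.30 to 1.91), and Csn2 by 2.04 (-0.92 to 5.0). The Csn2 difference was 3.14 without CON-LFD replicate 3 (limma, adjusted P = 0.13), 1.29 without CON-LFD replicate 2, and -0.40 with the B cell score in the fit (adjusted P = 0.989).

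B cell markers moved with the Xdh difference between DIO-VSG and CON-LFD. All 7 of 7 were higher in DIO-VSG at an unadjusted P, 0 after adjustment, against 17.8% of all genes called, with summed levels of 50741 to 59335 against 224 to 56132. Other lists moved as well, with 6 of 8 T cell markers higher and 6 of 20 luminal and 3 of 10 basal epithelial markers lower at an unadjusted P. Once the fit held the B cell score too, the Xdh difference was -0.32 and was not called (limma, adjusted P = 0.965). In that fit 1061 of 21218 genes were called at an unadjusted P, against 3771 without the score. With the luminal score instead, the Xdh difference was -0.70 and kept its call (limma, adjusted P = 0.539), and 1705 genes were called. The call was lost also without any 1 of replicates 2 and 4 of CON-LFD or replicates 1 and 3 of DIO-VSG, with differences of -0.88 to -0.50 over the libraries left out in turn. The DIO-VSG difference from DIO-LFD kept its call with the B cell score in the fit, at -0.50 (limma, adjusted P = 0.484). In that comparison lower means in DIO-VSG were found for all 8 endothelial, all 10 adipocyte, 19 of 20 luminal and 9 of 10 basal markers, and higher means for all 7 B cell and all 8 T cell markers. At an unadjusted P, 2 endothelial, 2 keratinocyte, 1 luminal and 1 basal marker were called, all lower, against 9.71% of all genes. With the luminal score in the fit, the Xdh difference was -0.65 and kept its call (limma, adjusted P = 0.712), its relation to the adipocyte score is given with the other scores, and the part of the endothelial list was not tested. The same difference lost its call without any 1 of replicates 1, 2 and 3 of DIO-LFD or of replicates 1, 3 and 4 of DIO-VSG, with differences of -0.83 to -0.46.

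Single genes were then set against scores of luminal and adipocyte markers over libraries, 12 relations in all, with permutation P values from 100000 resamples and Benjamini-Hochberg adjustment over the 12. Csn2 fell as the adipocyte score rose, with Pearson r = -0.71 (permutation P = 0.00136, adjusted P = 0.0163) and Spearman rho = -0.69 (permutation P = 0.00455, adjusted P = 0.0273) over 16 libraries. The r was -0.65 without the 2 libraries farthest from the median score and -0.69 within groups. B cell markers moved too. DIO-HFD replicate 1, with the highest Csn2 level (87.9 normalized counts) and the lowest adipocyte score (-1.13), had the highest B cell score (2.38). The 2 libraries without Csn2 reads, CON-LFD replicate 2 and DIO-HFD replicate 3, had the lowest B cell scores of the 16, -5.89 and -4.57. The B cell score was not among the 12 relations, and its part in the relation of Csn2 to the adipocyte score was not tested. With the B cell score in the fit, the Csn2 difference went from 1.28 to 0.53 for DIO-HFD against CON-LFD. It went from 0.82 to -0.85 for DIO-LFD against CON-LFD and from 0.76 to -0.93 for DIO-VSG against DIO-HFD. For DIO-LFD against DIO-HFD it went from -0.46 to -1.38, and for DIO-VSG against DIO-LFD from 1.22 to 0.45. None of these was called in either fit. Leaving out 1 library at a time also moved these differences. In the same order they ran from 0.30 to 2.46, 0.07 to 1.93, -0.42 to 1.74, -1.63 to 0.53 and 0.68 to 1.74.

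Xdh was higher where the adipocyte score was higher, with r = 0.60 (permutation P = 0.0127, adjusted P = 0.0765) and rho = 0.73 (permutation P = 0.0021, adjusted P = 0.0252) over 16 libraries, 0.46 without the 2 farthest libraries and 0.54 within groups. In the list of 10 adipocyte markers, 0 were called between DIO-VSG and CON-LFD, all 10 having lower means in DIO-VSG. The relation of Xdh to the B cell score was not tested. Csn3 and the luminal score gave r = 0.53 (permutation P = 0.0357, adjusted P = 0.143) and rho = 0.59 (permutation P = 0.0172, adjusted P = 0.0687), 0.58 without the 2 farthest libraries and 0.40 within groups. Csn2, in contrast, gave r = -0.08 with the luminal score (permutation P = 0.764, adjusted P = 0.886), and Btn1a1 0.32 (permutation P = 0.224, adjusted P = 0.537). Btn1a1 gave r = -0.33 with the adipocyte score (permutation P = 0.218, adjusted P = 0.537), -0.11 without the 2 farthest libraries and -0.60 within groups. With the luminal score in the fit, the Btn1a1 difference between DIO-LFD and DIO-HFD went from 1.38 to 0.86, and neither was called.

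**Figure D4:**
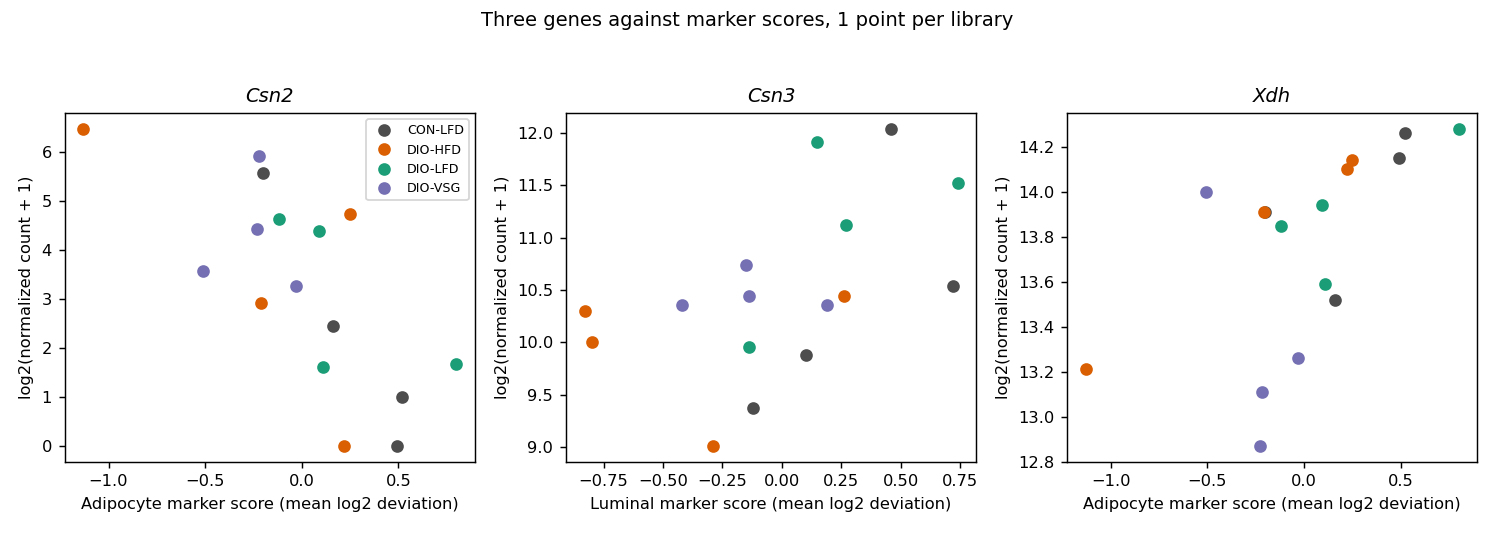
Level of Csn2, Csn3 and Xdh as log2(normalized count + 1) against the adipocyte, luminal and adipocyte marker scores in that order, each the mean log2 deviation of the list's markers from their mean over libraries, with 1 point per library colored by group; axes do not start at 0. Csn2 was highest where the adipocyte score was lowest, with 87.9 normalized counts in DIO-HFD replicate 1. Csn3 followed the luminal score loosely (r = 0.53, permutation test, adjusted P = 0.143). Xdh was higher where the adipocyte score was higher (r = 0.60, permutation test, adjusted P = 0.0765).

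The genes most like each of the 5 in level over 16 libraries were ranked by Pearson r as a description. Csn2 was closest to Rgs13, a regulator of G protein signaling known from germinal center B cells (0.921), the processed pseudogene Gm9923 (0.901) and Phf11a (0.893). Csn3 was closest to Mfi2 (0.854), Hey1, a Notch target (0.818), and Rbm20, a splicing regulator (0.782). Btn1a1 was closest to Cck, which encodes cholecystokinin (0.875), C530043A13Rik (0.848) and Clic6 (0.846). Xdh was closest to Asph (0.94), Pld1, a phospholipase (0.933), and Rusc2 (0.882), and Csn1s1 to Fbn2, which encodes a fibrillin (0.847), Slc5a9 (0.846) and Col9a1 (0.812). No other gene of the set appeared among these 15.

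Other genes of milk and of the prolactin pathway were read from fixed lists. Of 20 other milk genes, 19 had a row and were tested, and between 0 and 3 were called per direction and comparison at an unadjusted P, with 0 after adjustment, where 6.26% to 17.8% of all genes were called in either direction. Fabp3, a fatty acid-binding protein, differed by -4.62 between DIO-HFD and CON-LFD (limma, adjusted P = 0.266). It was at 3.7, 42.1, 21.8 and 18 against 328, 6251, 48 and 323 normalized counts. CON-LFD replicate 2 was far above the rest, but every CON-LFD library was above every DIO-HFD library. Over all genes, 4.76% did not overlap in this comparison. Folr1, a folate receptor, was higher in DIO-LFD than in DIO-HFD by 1.57 on the log2 scale (limma, adjusted P = 0.456), at 136 ± 71.4 against 39.6 ± 13.7 normalized counts (SD, n = 4). Mfge8, a milk fat globule protein that macrophages also make, differed by -0.75 between DIO-VSG and DIO-HFD, by 0.56 between DIO-HFD and CON-LFD and by -0.50 between DIO-VSG and DIO-LFD (limma, adjusted P = 0.246, 0.279 and 0.509). The 8 macrophage markers had medians of -0.85, 0.50 and -0.53 in those comparisons, with 1, 1 and 0 called in the same direction. Wfdc18 differed by -1.91 between DIO-VSG and CON-LFD (limma, adjusted P = 0.268), at 635 ± 127 against 2690 ± 1285. The others with the smallest P were Pigr, an antibody transporter, at 0.88 in DIO-LFD against DIO-HFD and 1.03 against CON-LFD, Slc34a2 at -1.34 in DIO-VSG against DIO-HFD, and the mucins Muc15 at -1.43 in DIO-VSG against CON-LFD and Muc1 at -1.08 in DIO-VSG against DIO-LFD, with adjusted P of 0.268 to 0.707 from limma.

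The prolactin and STAT5 list held 16 genes, all tested. In DIO-LFD against DIO-HFD, 4 of 16 were higher and 0 lower at an unadjusted P, against 8.53% of all genes called in either direction, with a median log2 difference of 0.47 beside 0.01 over all genes, and 0 passed adjustment. Of the 20 luminal markers, 9 were called higher in the same comparison and 19 had higher means, with a median of 0.64. Within the prolactin and STAT5 list, Prlr, the prolactin receptor, had the smallest P, with a difference of 1.52 (SE 0.36, limma, adjusted P = 0.317). Its normalized counts were 18399, 35122, 34272 and 13063 in CON-LFD, 7188, 18775, 13923 and 11530 in DIO-HFD, 23071, 59882, 29930 and 35527 in DIO-LFD, and 23300, 33112, 31034 and 28583 in DIO-VSG. Every DIO-LFD and DIO-VSG library was above every DIO-HFD library, whereas CON-LFD overlapped DIO-HFD. Over all genes, 4.51% did not overlap in the first of these comparisons and 6.59% in the second. Gata3, a luminal transcription factor, differed by 0.63 in DIO-LFD (limma, adjusted P = 0.463) and by -0.81 in DIO-HFD against CON-LFD (adjusted P = 0.215). DIO-HFD against CON-LFD called 2 of 16 lower and DIO-VSG against DIO-HFD 2 of 16 higher, Prlr and Gata3 both times, which was near the share of all genes (12.9% and 13.2%). Luminal markers moved in the same comparisons, with 9 of 20 called lower and 0 of 20 having a higher mean in DIO-HFD against CON-LFD, and 3 called higher, 1 lower and 16 of 20 having higher means in DIO-VSG against DIO-HFD, none after adjustment, and their part in these values was not tested. Nfib, a transcription factor, differed by -0.46 in DIO-LFD and by -0.62 in DIO-VSG against CON-LFD (limma, adjusted P = 0.745 and 0.268). Stat5a itself was at 5336 ± 922, 4033 ± 269, 6573 ± 2914 and 5099 ± 785 normalized counts, in the order control, obese, diet and surgery.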

How the data were processed

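Mammary adipose RNA of 16 mice was profiled with a stranded total RNA kit. Per the study's methods, reads were aligned to GRCm38 with STAR and counted with salmon against a Gencode annotation, and genes with fewer than 10 counts were removed, whereas the submitters' processing notes name TopHat2 2.0.7 and HTSeq 0.5.3p9 with mm10. Which of these made the table is not known. The deposited values are on a log2 scale, from 5.36 to 21.85, and are a variance-stabilizing transformation that the authors made with DESeq2. The transformation was inverted to normalized counts, and dividing by each library's step gave whole reads for 100.0% of values (within 0.01), with 46907377 to 57610899 reads per library and size factors of 0.9036 to 1.2204. The floor of 3 reads covers counting error only, and the 95% intervals of differences come from limma and rest on the spread between mice.

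Groups came from sample titles, and 0 columns lacked a sample. The 21218 genes that reached 10 normalized counts in 4 or more libraries were tested with limma (version 3.58.1, under R 4.3.3) after taking log2(normalized count + 1), all 16 libraries in 1 fit with group as the factor and Benjamini-Hochberg adjustment over all genes tested. A call is a two-sided P below 0.05. A fold change on this scale understates that of genes with low counts. Single values were tested by exact permutation of 4 against 4 mice (70 arrangements). Gene positions and lengths came from a GENCODE annotation of GRCm38. The fit was tested on simulated data. The genes and lists were chosen with earlier results of these data known. Named were all 8 genes, the 2 genes of each list and comparison with the smallest P (marker lists are given as counts, and genes with no call are left out), and the 3 genes most correlated with each tested gene. Elf5, Pgr, Cish, Ybx1 and Stat5a were chosen after their values were seen. The luminal, adipocyte and B cell scores are means of log2 deviations over their lists. Alternatives covered the pseudocount, filter, scaling, voom, array weights, the samples in the fit, a replicate block, a luminal covariate and leaving out each library. The B cell covariate was chosen after seeing the data. Results that rest on 1 marker of the planned lists are not reported here, and that marker was left out of its list.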

Additional observations from a re-analysis of the deposited data

How the results depend on the processing

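Over 28 alternatives, 816 values of the 30 log2 differences were computed. Of these, 751 kept their direction and their side of an unadjusted P of 0.05, 31 changed sign without being called in either fit, 16 gained and 17 lost the call, and 1 reversed. Csn1s1 had no value when 1 of the 4 libraries with at least 10 counts was left out, since it then failed the filter.

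Array quality weights, which weight libraries by their fit to the group means, changed the most. The number of the 5 genes called became 2 in DIO-HFD against CON-LFD (0 without weights), 2 in DIO-LFD against DIO-HFD (1), 2 in DIO-VSG against DIO-HFD (0), 1 in DIO-LFD against CON-LFD (0), 2 in DIO-VSG against CON-LFD (1), 2 in DIO-VSG against DIO-LFD (1) and 3 over all 4 groups (0). The reversed value was that of Csn1s1 in DIO-HFD against CON-LFD, -2.97 with weights (limma, adjusted P = 0.0975). With weights, and under no other alternative, adjusted P values fell below 0.05: Csn3 in DIO-LFD against DIO-HFD (0.00694), DIO-HFD against CON-LFD (0.00944) and DIO-VSG against DIO-HFD (0.023), Btn1a1 in DIO-LFD against DIO-HFD (0.0179) and Xdh in DIO-VSG against DIO-HFD (0.0208). The weights also raised the calls over all genes. Of 21218 genes, 7949, 5596, 7184, 3613, 7937 and 5500 were called at an unadjusted P, in the order of the 6 comparisons above. Without weights these were 2735, 1809, 2794, 1328, 3771 and 2061. After adjustment, calls rose from 8 to 4196 in DIO-HFD against CON-LFD. From 0, they rose to 1811 in DIO-LFD and 3739 in DIO-VSG against DIO-HFD. The cause was not tested. Calls over all genes after adjustment rose also without CON-LFD replicate 3, to 136 in DIO-HFD against CON-LFD and from 0 to 878 in DIO-VSG against CON-LFD. With only the 8 libraries of the pair they rose from 0 to 1533 in DIO-VSG against DIO-LFD. With the luminal covariate 0 of the 5 genes were called in DIO-LFD against DIO-HFD. Unadjusted calls over all 21218 genes fell there from 1809 to 663. With the B cell covariate 0 of the 5 were called in DIO-VSG against CON-LFD, where calls over all genes fell from 3771 to 1061.

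Leaving out each library in turn gave 0 to 2 genes in DIO-LFD against DIO-HFD, 0 to 1 in DIO-VSG against DIO-HFD, 0 to 1 in DIO-LFD against CON-LFD, 0 to 2 in DIO-VSG against CON-LFD, 0 to 1 in DIO-VSG against DIO-LFD, 0 to 1 over all 4 groups and 0 in DIO-HFD against CON-LFD. Unadjusted calls over all genes (21105 to 21159 tested) moved too. They ran from 1259 to 1950 in DIO-LFD against DIO-HFD and from 1580 to 5820 in DIO-VSG against DIO-HFD. Against CON-LFD they ran from 837 to 2647 in DIO-LFD, 1894 to 6453 in DIO-VSG and 1803 to 4172 in DIO-HFD. In DIO-VSG against DIO-LFD they ran from 1077 to 2807. The fit without CON-LFD replicate 3 gave both the 2 genes and the 6453 calls of DIO-VSG against CON-LFD. Same-numbered libraries did not deviate together (r from -0.609 to 0.534, over 0.1 in 9 of 24 pairs, with 4 of 16 libraries best matched to their own number), so the samples share only a number. With a replicate block, all 30 differences stayed on their side of the threshold, 3 called at an unadjusted P and the rest not, with 1.19 for Csn3 in DIO-LFD against DIO-HFD, -0.65 for Xdh in DIO-VSG against CON-LFD and -0.60 against DIO-LFD. Depth limits the precision for Csn1s1, Csn2 and Lalba, with 129, 328 and 77 reads in all, beside the spread between mice. With 4 mice a group, intervals stay wide.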
